A study of Mus musculus with 25 samples.

Results

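CD11b+ cells sorted from mouse kidneys in a low Ly6C gate 9 days after ischemia were compared with CD11b+ cells sorted in an intermediate Ly6C gate 24 h after ischemia. The first group, called 9 day Low, has 3 arrays (replicates 8, 9 and 13), and the second, called 24 h Intermediate, has 3 arrays (replicates 7, 8 and 9), so 6 of the 25 arrays of the series enter the comparison. Both groups were male C57BL/6 mice of 8 to 10 weeks that had 28 min of bilateral renal ischemia and then reperfusion for 9 days or 24 h. No genetic change is named for any animal. All animals were given saline after surgery and the analgesic buprenorphine before it, with further doses from 24 h on. The labels call the sorted cells macrophages and give each array a replicate number, but do not say whether an array holds 1 animal or a pool, so p-values measure the spread between these samples. Because gate and time differ together, the effects of time and gate cannot be told apart. The comparison sets cells of the repair phase against cells of the injury phase. Expression was measured as log2 values of Affymetrix mouse arrays with 45101 probe sets, after amplification of very small amounts of RNA, and for each probe set a detection call (P for present) was deposited.

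Ly6C is a surface protein abundant on monocytes that have just left the blood and low on most resident macrophages, and CD11b is an integrin carried by monocytes, macrophages and neutrophils alike. In an ischemic kidney, neutrophils and inflammatory monocytes arrive early and release proteases, cytokines and chemokines that call in further cells. Macrophages of the later phase are known for clearing dead cells through receptors such as MerTK, presenting antigen on MHC class II, and secreting growth factors such as IGF-1.

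The arrays differed in yield before any gene was tested. The share of probe sets called P was 25.3%, 32.8% and 37.3% in 9 day Low (31.8% ± 6.04, SD, n = 3) and 19.2%, 10.1% and 11.4% in 24 h Intermediate (13.6% ± 4.96, n = 3). The shares did not overlap, and the exact permutation test gave p = 0.1, the smallest value that 3 against 3 arrays allow. Gapdh probes at the 3' end over those at the 5' end, a sign of RNA integrity, gave a ratio that ran from 3.00 to 10.7 in 9 day Low and from 3.30 to 10.0 in 24 h Intermediate, which overlapped (exact permutation p = 0.8). Over all probe sets, 9 day Low arrays correlated with each other at 0.818 to 0.862 and 24 h Intermediate arrays at 0.743 to 0.783. The 24 h Intermediate replicate 7 correlated with replicates 8 and 9 of its group at 0.747 and 0.783, and these 2 with each other at 0.743. It was also closer than they were to the 9 day Low arrays, at 0.745 to 0.755 against 0.645 to 0.691. A probe set shared by Ly6c1 and Ly6c2 had log2 values of 5.25, 4.32 and 4.76 in 9 day Low. In 24 h Intermediate it had 10.99, 11.14 and 11.23. Across the series this RNA did not follow the gate. Sham Low arrays had 12.57 and 10.37, and 9 day Intermediate arrays had 5.27, 10.92 and 5.01. Itgam, which encodes CD11b and was gated alike in both groups, had 4.94, 4.40 and 2.69 in 9 day Low and 2.14, 5.52 and 4.07 in 24 h Intermediate, with full overlap.

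Of 18194 genes with a probe set, 7350 were called P on at least 2 arrays of a group and were tested with limma. At a Benjamini-Hochberg adjusted p under 0.05 over these genes, 613 differed, which is 8.34% of the genes tested, and 518 of them (7.05%) were higher and 95 (1.29%) lower in 9 day Low. The smallest adjusted p was 0.00776. The 6 values did not overlap between groups for 2238 genes (30.4%), of which 1645 (22.4%) lay higher and 593 (8.07%) lower in 9 day Low. Differences of all genes were themselves shifted, with a median log2 difference of 1.03 and 70.7% of genes above 0. Each list below is therefore read against that median, and its counts of calls against the 7.05% higher and 1.29% lower.

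Most of the higher calls were genes that 24 h Intermediate arrays barely detected. Of the 518, 506 were called P on at least 2 arrays of 9 day Low and on 1 or 0 of 24 h Intermediate, and 411 on all 3 against none. Among the 2640 genes detected on at least 2 arrays of both groups, 12 were higher and 53 lower in 9 day Low, and their median difference was -0.04. The direction split moved with the scaling: quantile normalization of the 6 arrays gave 272 higher and 113 lower (median 0.59), centring each array on its median over the genes tested gave 53 and 254 (median -0.88), and centring on the genes P on all 6 arrays, an alternative chosen after seeing the data, gave 776 and 83. With the yield of each array as a covariate in a model over 21 arrays of 8 groups, 54 genes were higher and 105 lower. Centring on the genes tested lowers every difference by the same 1.91, so it can only take away higher calls and add lower ones, and a list's distance from the median of all genes stays as it was. None of the 613 calls took the opposite sign under these scalings, but 7 did with the yield covariate, of which none was called. The filter bears on directions too, since a gene P on 9 day Low arrays alone entered only because it is high there. The share of a higher call that goes with the yield was not tested, and every higher call below stands beside the yields given above.

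**Figure D1:**
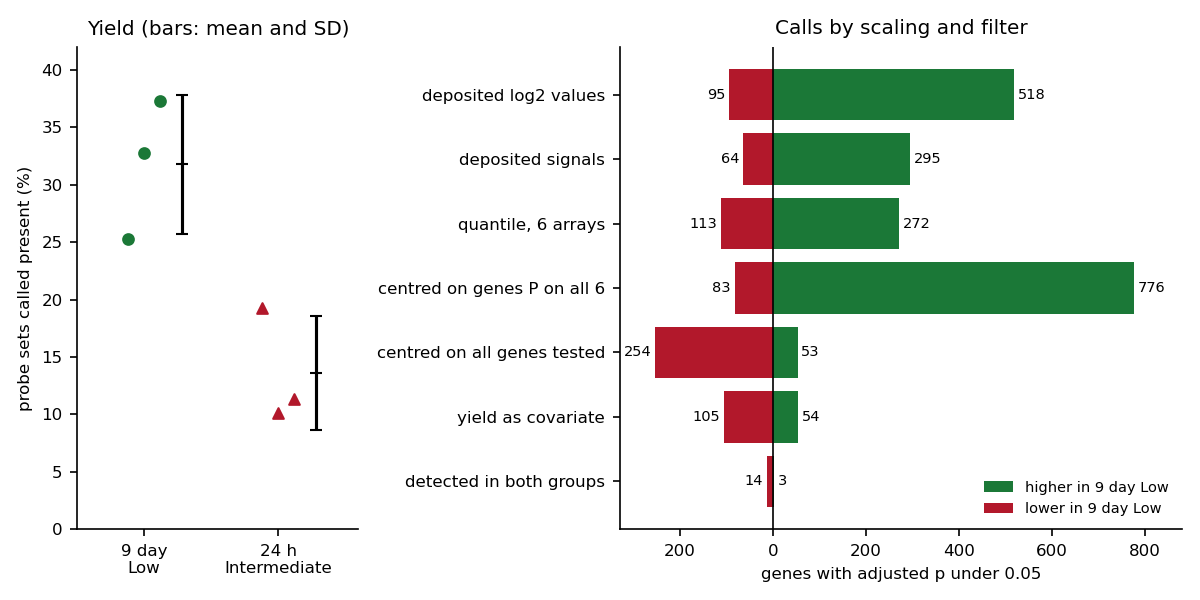
Left, the share of probe sets called P on each array (points, 3 per group; the bar is the mean with its SD), at 25.3% to 37.3% in 9 day Low and 10.1% to 19.2% in 24 h Intermediate. Right, the number of genes with adjusted p under 0.05 that were higher (green, to the right) or lower (red, to the left) in 9 day Low under each scaling or filter, from 518 and 95 with the deposited values to 53 and 254 after centring on the genes tested.

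Several of the genes with the largest difference toward 24 h Intermediate are known from neutrophils. Stfa2l1, a stefin A-type inhibitor of cysteine proteases, had log2 values of 1.85, 3.93 and 2.73 in 9 day Low and 13.18, 13.73 and 13.31 in 24 h Intermediate, a difference of -10.57 ± 0.78 (SE; adjusted p = 0.00776). Its neighbour in function Stfa3 had 2.76, 2.08 and 2.43 in 9 day Low and 9.82, 12.57 and 10.36 in 24 h Intermediate. All 3 arrays of 9 day Low lay near background for both genes and every 24 h Intermediate array lay far above them. Stfa3 was not called P on any 9 day Low array and was about 360-fold lower there (adjusted p = 0.00776). For this and every other fold, the group without a P call was raised to the lowest log2 value called P on each array. That value lies near background, so such a fold is close to the fitted one and is not a true minimum. The stefin A genes are a cluster of near-identical copies, so probes may read more than 1 of them. Wfdc21, which encodes a secreted WAP-domain protein of neutrophils, had 4.37, 3.37 and 5.06 in 9 day Low and 13.64, 13.82 and 13.71 in 24 h Intermediate, a difference of -9.45 ± 0.72 (adjusted p = 0.00776). G0s2, an inhibitor of the triglyceride lipase ATGL, had 3.31, 5.77 and 3.92 in 9 day Low and 13.13, 13.66 and 12.32 in 24 h Intermediate, a difference of -8.71 ± 0.88 (adjusted p = 0.00776). Mmp9, the gelatinase of neutrophil granules, had 3.20, 5.87 and 3.58 in 9 day Low and 12.31, 11.88 and 11.56 in 24 h Intermediate, a difference of -7.70 ± 0.90 (adjusted p = 0.00955). In each of these genes the groups were separated by more than 5 log2 units, far beyond the spread within a group.

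Across the neutrophil list, 19 of 22 genes were tested, and 14 were lower and none was higher in 9 day Low. The median difference was -5.94, against 1.03 over all genes. This list was written with earlier results of these data known. Stfa2l1, Stfa3 and G0s2, given above, are among its lower genes, so its counts are not separate support for them. All 19 lay below 0 with no overlap between the groups. The 14 included Il1r2, the decoy receptor for interleukin-1 (-7.14 ± 0.69, adjusted p = 0.00776), Cxcr2, the receptor that draws neutrophils to chemokines (-5.12 ± 0.82, adjusted p = 0.0167), Csf3r, the receptor for G-CSF (-4.67 ± 0.86, adjusted p = 0.0249), and the granule genes Lcn2, Ngp and Camp. Lcn2, which encodes the iron-siderophore binding protein NGAL, had 8.27, 3.87 and 5.60 in 9 day Low and 13.48, 12.87 and 13.59 in 24 h Intermediate (-7.40 ± 1.17, adjusted p = 0.0164). S100a8, a subunit of calprotectin, had 11.96, 12.39 and 11.95 in 9 day Low and 14.65, 14.74 and 14.64 in 24 h Intermediate, and with an adjusted p of 0.0524 it missed the threshold, although no values overlapped. Mpo, Elane and Ltf, also granule genes of the list, were not called P on any of the 6 arrays. With each array left out in turn, 8 to 13 members were lower, and with the covariate for yield 10 were. In bulk RNA, fewer cells of a type and less RNA per cell cannot be told apart.

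The promoters of 2 of these granule genes are shown because they hold a loose form of the core bound by C/EBP factors. These factors are known to drive granule genes. The middle bases of the core were left free, so a marked stretch need not be a palindrome. They come from RefSeq promoter windows on GRCm38.p6, from 250 bases before to 50 after the gene start, and capitals mark the letters TTGNNCAA, searched on both strands. Ngp at chr9:110419558-110419857 (+ strand) held 3 such sites and Lcn2 at chr2:32387690-32387989 (- strand) held 1.
Ngp: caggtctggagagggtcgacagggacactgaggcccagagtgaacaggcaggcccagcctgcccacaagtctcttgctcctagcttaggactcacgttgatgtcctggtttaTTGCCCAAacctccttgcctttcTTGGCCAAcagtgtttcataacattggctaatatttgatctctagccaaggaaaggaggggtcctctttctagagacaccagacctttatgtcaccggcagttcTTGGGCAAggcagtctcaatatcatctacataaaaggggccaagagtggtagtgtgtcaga
Lcn2: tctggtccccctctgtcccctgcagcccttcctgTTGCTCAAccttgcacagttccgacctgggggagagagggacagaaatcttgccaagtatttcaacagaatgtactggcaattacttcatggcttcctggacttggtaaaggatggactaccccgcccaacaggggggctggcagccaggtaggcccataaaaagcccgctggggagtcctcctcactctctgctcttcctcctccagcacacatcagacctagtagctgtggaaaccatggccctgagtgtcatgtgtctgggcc
Of the 14 neutrophil genes that were lower, 12 had a promoter in the table, and 3 of the 12 promoters (25.0%) held the letters, among them Hdc. All 32851 promoters of the table held them in 6.40% and those of the genes tested in 5.24%. Of the 90 promoters found for the 95 lower genes, 15 (16.7%) held them, and of the 564 promoters found for the 518 higher genes 33 (5.85%). The excess was not found for these letters alone. The AP-1 core TGANTCA stood in 15.6% of the promoters of lower genes, against 5.18% of those of genes tested, and the core of the NF-kB site in 4.44%, against 1.74%. The PU.1 core GAGGAAGT stood in 5.56%, against 3.59%. A match is a description of the letters and not evidence of binding, and the genes whose promoters are shown were chosen after their values were seen.

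The other groups place both ends of this difference. The level of the neutrophil list, summed over its 22 genes on the linear scale, was 10563, 13767 and 13218 in 9 day Low and 135572, 154308 and 126065 in 24 h Intermediate. The 9 day Low arrays were the lowest of all 24 arrays of sorted cells: the lowest of the 18 arrays of the other groups stood at 17344, an array of sham 58 High. Arrays of 24 h Intermediate were near or above the highest of the others, 126488 on an array of 4 h Intermediate. Neutrophil genes were also detected in cells of sham kidneys, with 22 and 19 of the 22 genes called P in sham Low. At the same 9 days, the Intermediate gate had sums of 39727, 69280 and 54186, all above the Low gate. However, 9 day Intermediate replicates 8 and 13 had only 3.29% and 4.67% of probe sets called P, and replicate 9 had 25.5%. Yields of the 18 other arrays ran from 1.99% to 40.0%, and their part in these sums was not tested. The tissue macrophage list showed the opposite order, with sums of 67434, 67205 and 89906 in 9 day Low and 19247, 12811 and 20739 in 24 h Intermediate, and the highest of the other 18 arrays reached 58909. The summed MHC class II list was 74894, 91049 and 108255 in 9 day Low and 25146, 6290 and 26246 in 24 h Intermediate, with other arrays up to 97399, so there 9 day Low was not apart from all other groups.

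**Figure D2:**
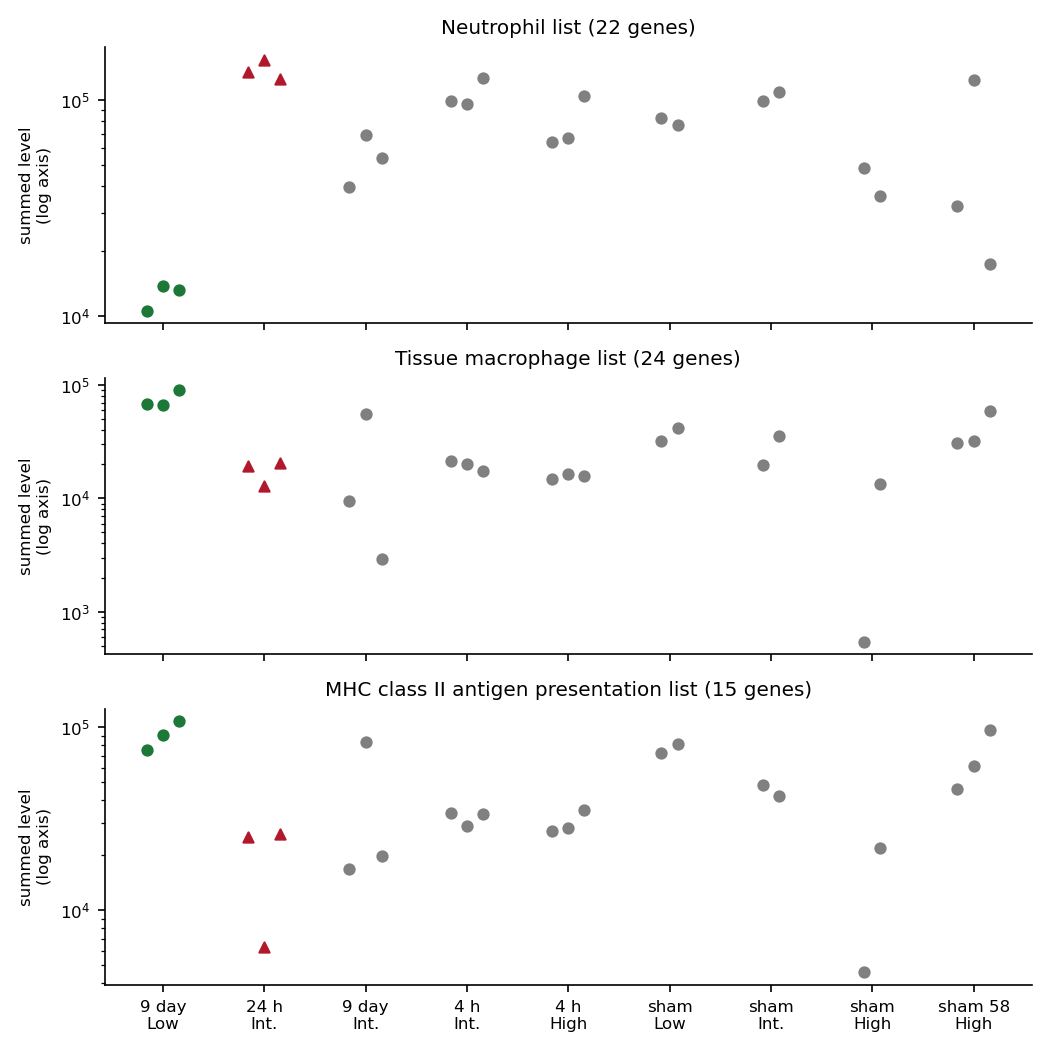
Summed level of the neutrophil, tissue macrophage and MHC class II lists on each array (1 point per array, linear RMA values added over the genes of the list, log axis), with 9 day Low in green at the left and 24 h Intermediate as red triangles beside it. The 3 arrays of 9 day Low lie lowest of all arrays of sorted cells for neutrophil genes (10563 to 13767) and highest for macrophage genes (67205 to 89906).

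Of 15 tested genes of the pro-inflammatory cytokine list, 6 were lower and 1 was higher in 9 day Low, and the median difference was -4.10. Despite its name, the list also holds receptors, enzymes and a matrix protein. Of its lower genes only Il1f9 and Tnfsf14 encode cytokines, so the counts do not describe cytokines as a class. With 1 array left out, 3 to 6 were lower and 0 to 1 higher. Il1f9, the gene for interleukin-36 gamma, was never called P in 9 day Low and was about 88.0-fold lower there (adjusted p = 0.00776). Values were 3.49, 3.63 and 3.02 in 9 day Low and 9.81, 10.26 and 9.44 in 24 h Intermediate. Tnfsf14, which encodes the TNF-family ligand LIGHT, was about 24.2-fold lower (adjusted p = 0.0162). Values were 4.84, 4.66 and 5.01 in 9 day Low and 10.24, 9.49 and 8.56 in 24 h Intermediate. Neither gene had overlapping values. Clec4e, the receptor Mincle that senses dead cells and mycobacterial glycolipids, differed by -6.86 ± 1.32 (adjusted p = 0.0271), and Thbs1, the matrix protein thrombospondin-1 that activates latent TGF-beta, by -6.35 ± 1.19 (adjusted p = 0.0252). Hdc, which makes histamine, and Trem1, an amplifier of inflammatory signals, were the other lower genes, and both also stand in the neutrophil list. The summed neutrophil level moved with this list, and its part in the result of the list was not tested.

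The classical mediators of the list did not pass the test. Il1b had 11.48, 10.92 and 12.37 in 9 day Low and 13.40, 13.25 and 13.33 in 24 h Intermediate, with no overlap but an adjusted p of 0.189. Tnf had 5.65, 5.33 and 6.39 in 9 day Low and 8.35, 5.84 and 6.57 in 24 h Intermediate, which overlapped (adjusted p = 0.461). Il6 and Nos2 were called P on too few arrays to be tested. The 1 higher gene was Tnfsf9, the ligand of the T cell costimulator 4-1BB (about 46.7-fold higher, adjusted p = 0.0201). Values were 9.55, 7.36 and 10.28 in 9 day Low and 4.18, 3.38 and 3.00 in 24 h Intermediate.

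Chemokine ligands differed in both directions. Of 20 tested, 4 were higher and 2 lower in 9 day Low, with a median of -0.40 that turned to 0.07 after centring on the genes P on all 6 arrays. Cxcl3, a ligand of Cxcr2, had 6.40, 2.32 and 4.48 in 9 day Low and 11.38, 13.40 and 10.69 in 24 h Intermediate (-7.42 ± 1.26, adjusted p = 0.0195), and Ppbp, a platelet-derived ligand of the same receptor, was also lower (-4.72 ± 0.95, adjusted p = 0.0313). On the other side were Ccl8, a ligand of CCR8 in mice, and the ligands of the T cell receptor Cxcr3, Cxcl9 and Cxcl10, together with Cxcl14. Ccl8 had 9.91, 11.01 and 10.26 in 9 day Low and 6.52, 2.42 and 3.62 in 24 h Intermediate (6.21 ± 1.14, adjusted p = 0.0244). Cxcl9 had 6.02, 8.98 and 9.20 in 9 day Low and 2.13, 3.16 and 2.48 in 24 h Intermediate. It was about 44.5-fold higher (adjusted p = 0.0252), and Cxcl10 was about 21.2-fold higher (adjusted p = 0.0354). These genes kept the groups apart on every array. With 1 array left out, 0 to 2 chemokine ligands were higher and 0 to 1 lower. Cxcl2, another Cxcr2 ligand, had 12.22, 10.77 and 11.76 in 9 day Low and 13.41, 14.05 and 13.20 in 24 h Intermediate and did not pass (adjusted p = 0.158).

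**Figure D3:**
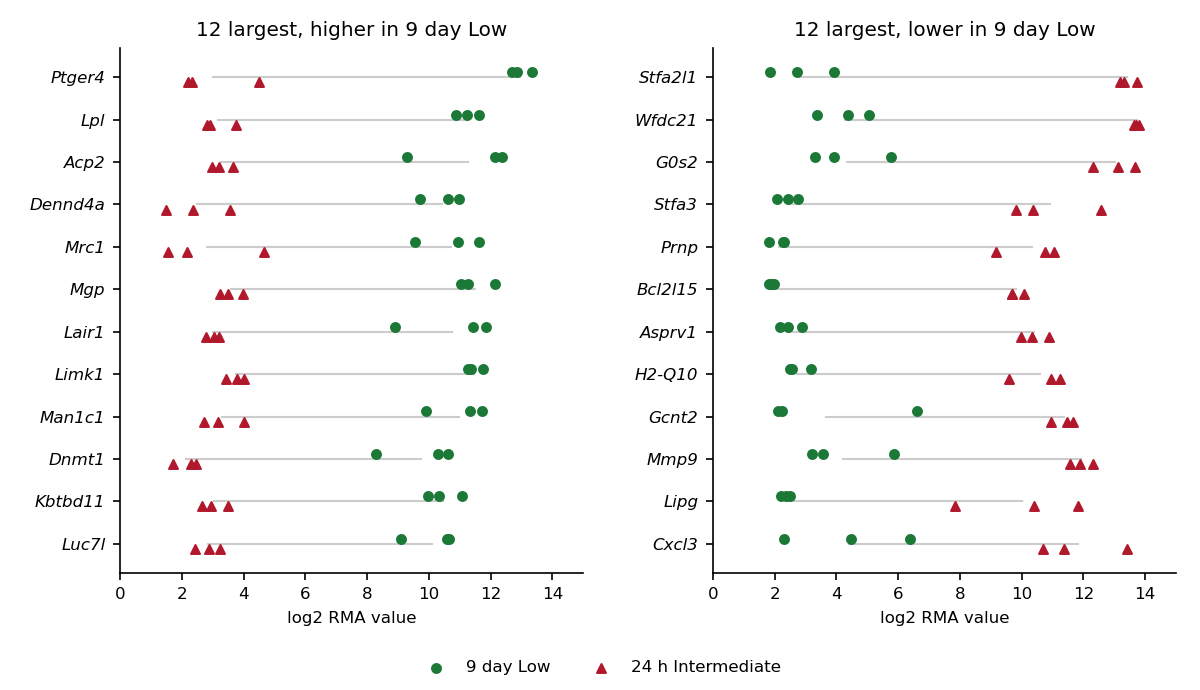
Log2 RMA value of the 12 genes with the largest difference in each direction among the named genes, 9 day Low as green circles above 24 h Intermediate as red triangles, 1 point per array and a grey line between the group means. The groups do not overlap for any of the 24 genes; Stfa2l1 has the widest gap (-10.57) among the lower genes and Ptger4 (9.95) among the higher ones.

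Tissue macrophage genes lay mostly above 0. Of 21 tested tissue macrophage genes, 3 were higher in 9 day Low, none was lower, 19 lay above 0, and the median was 2.77. Of all genes tested, 7.05% were higher, 70.7% lay above 0 and the median was 1.03. Mrc1, the mannose receptor CD206, had 11.63, 9.56 and 10.94 in 9 day Low and 4.67, 1.56 and 2.18 in 24 h Intermediate (7.91 ± 1.06, adjusted p = 0.011). Mertk, the receptor kinase by which macrophages take up dying cells, was about 64.5-fold higher (adjusted p = 0.00924). Values were 8.58, 8.66 and 9.38 in 9 day Low and 2.72, 3.31 and 2.56 in 24 h Intermediate. Cx3cr1, the fractalkine receptor, had 9.74, 10.36 and 10.94 in 9 day Low and 7.58, 3.74 and 3.36 in 24 h Intermediate (5.45 ± 1.23, adjusted p = 0.0435). For all 3 genes each 9 day Low array exceeded each 24 h Intermediate array, and the highest 24 h value came from replicate 7 for Mrc1 and Cx3cr1. Adgre1, which encodes F4/80, had 10.55, 9.66 and 10.84 in 9 day Low and 9.07, 4.50 and 3.00 in 24 h Intermediate and missed the threshold (adjusted p = 0.114), with 24 h Intermediate replicate 7 close to the 9 day Low arrays. Vsig4, Timd4 and Lyve1, markers of long-resident macrophages, were called P on none of the 6 arrays. With 1 array left out 2 to 4 of the list were higher. With yield as a covariate none was, and Ctsl, which encodes the protease cathepsin L, was lower.

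Of 20 tested genes for efferocytosis and scavenging, Mertk and Axl were higher and none was lower, where 7.05% of all genes tested were higher. The list median was 1.44 (-0.48 after centring on the genes tested), 0.40 above that of all genes under both. With 1 array left out, 1 to 3 were higher and 0 to 1 lower. Axl, a relative of Mertk, was about 26.1-fold higher (adjusted p = 0.0355). Values were 7.94, 5.78 and 9.03 in 9 day Low and 2.20, 3.35 and 3.09 in 24 h Intermediate. Of 19 tested alternative activation genes, 3 were higher and 1 was lower, beside 7.05% and 1.29% of all genes tested. The median of that list was 1.59 (-0.33 after the same centring), 0.55 above that of all genes under both. The higher ones were the lectins Mrc1, Clec10a (4.51 ± 0.96, adjusted p = 0.0358) and Mgl2 (about 20.9-fold, adjusted p = 0.0434). The lower one was Chil3, a chitinase-like secreted protein also abundant in neutrophil precursors and monocytes, with 6.05, 6.06 and 8.13 in 9 day Low and 13.36, 13.10 and 13.36 in 24 h Intermediate (-6.53 ± 0.81, adjusted p = 0.00972). Chil3 thus stood opposite to the 3 lectins of its list. Arg1, the arginase often used as a marker of alternative activation, had 9.70, 9.43 and 8.00 in 9 day Low and 10.40, 10.55 and 10.87 in 24 h Intermediate, lower on every array but not past the test (adjusted p = 0.257). Its mitochondrial relative Arg2 had 3.51, 5.46 and 5.31 in 9 day Low and 11.97, 12.51 and 11.31 in 24 h Intermediate (-7.17 ± 0.82, adjusted p = 0.00955). The 2 arginases therefore stood on the same side, with a wide gap for Arg2 alone.

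Antigen presentation and complement genes lay higher in 9 day Low. Ciita, the transcriptional master regulator of MHC class II, was about 86.7-fold higher (adjusted p = 0.00776). Values were 9.13, 9.46 and 9.83 in 9 day Low. In 24 h Intermediate, where it was never called P, they were 3.18, 2.94 and 2.99. Of 14 tested MHC class II genes, Ciita and H2-Oa, a subunit of the peptide-loading modulator H2-O, passed the test. The share of all genes tested that were higher was 7.05%. In this list 13 lay above 0 and the median was 3.28, the highest of the lists with at least 5 genes tested. The class II chain H2-Ab1 had 14.01, 14.44 and 14.57 in 9 day Low and 12.38, 11.08 and 12.38 in 24 h Intermediate, without overlap and with an adjusted p of 0.0938. Cd80, a costimulator, ran the other way, with 3.22, 4.22 and 5.55 in 9 day Low and 6.79, 7.17 and 9.10 in 24 h Intermediate (adjusted p = 0.0893). Of 11 tested complement genes, 3 were higher and none lower, with a median of 2.77, and with 1 array left out 1 to 3 were higher. C3ar1, the receptor of the C3a fragment, had 10.99, 11.78 and 12.23 in 9 day Low and 5.80, 4.39 and 3.37 in 24 h Intermediate (7.15 ± 0.86, adjusted p = 0.00972). Itgax, the CD11c chain of complement receptor 4, was about 31.1-fold higher (adjusted p = 0.0167). Cfb, factor B of the alternative pathway, was about 17.7-fold higher (adjusted p = 0.0249). C1qa, C1qb and C1qc, which encode the chains of C1q, lay higher without overlap and with adjusted p from 0.08 to 0.239. With yield as a covariate, no gene of either list was called.

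Interferon-stimulated genes lay above 0 in 19 of 21 tested, with 5 higher, none lower and a median of 2.45. Gbp3, a guanylate-binding GTPase of cell-autonomous defence, was about 110-fold higher (adjusted p = 0.00776). Values were 9.52, 9.77 and 9.69 in 9 day Low and 2.28, 3.70 and 2.66 in 24 h Intermediate. Xaf1, an antagonist of the apoptosis inhibitor XIAP, was about 61.4-fold higher (adjusted p = 0.0115). Values were 8.44, 9.58 and 10.54 in 9 day Low and 4.31, 2.98 and 3.46 in 24 h Intermediate. Stat2, a subunit of the interferon-activated factor ISGF3, was about 16.2-fold higher (adjusted p = 0.0224). Values were 6.24, 7.86 and 7.17 in 9 day Low and 3.31, 2.89 and 3.02 in 24 h Intermediate. None of these 3 genes was called P in 24 h Intermediate, so their values there are near background, and every 9 day Low value lay above them. A further probe set of Stat2 differed by 1.12 only. Usp18, which removes the ubiquitin-like ISG15, differed by 4.82 ± 0.93 (adjusted p = 0.0271), and Ifit3, an antiviral protein, had 10.78, 8.84 and 10.14 in 9 day Low and 6.58, 4.72 and 6.83 in 24 h Intermediate (3.88 ± 0.91, adjusted p = 0.0482). Not all members followed, since Irf7, a regulator of the response, was called P on all 6 arrays and differed by 1.11 (adjusted p = 0.515), close to the median of all genes. Leaving out 1 array left 2 to 5 members higher, and the yield covariate left none.

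The promoters of Gbp3, Ifit3 and Stat2 are shown because they hold the core of the interferon-stimulated response element, to which ISGF3 binds. The windows are RefSeq promoters on GRCm38.p6, all on the + strand, at chr3:142559794-142560093, chr19:34583279-34583578 and chr10:128270248-128270547, and capitals mark GAAA and GAAA parted by any 2 bases, searched on both strands. All matches lie on the strand opposite to the one printed, so the capitals read TTTC and TTTC.
Gbp3: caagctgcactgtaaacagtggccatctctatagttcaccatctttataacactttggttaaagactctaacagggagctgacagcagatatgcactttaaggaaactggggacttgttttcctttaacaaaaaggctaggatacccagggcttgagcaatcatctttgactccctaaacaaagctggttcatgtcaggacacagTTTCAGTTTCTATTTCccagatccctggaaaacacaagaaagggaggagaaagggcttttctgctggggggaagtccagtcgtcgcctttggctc
Ifit3: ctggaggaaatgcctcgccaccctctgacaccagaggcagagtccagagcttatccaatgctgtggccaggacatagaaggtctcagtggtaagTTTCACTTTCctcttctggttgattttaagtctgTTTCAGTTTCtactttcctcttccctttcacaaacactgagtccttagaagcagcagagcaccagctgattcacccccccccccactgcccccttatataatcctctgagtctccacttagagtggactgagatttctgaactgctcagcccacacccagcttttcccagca
Stat2: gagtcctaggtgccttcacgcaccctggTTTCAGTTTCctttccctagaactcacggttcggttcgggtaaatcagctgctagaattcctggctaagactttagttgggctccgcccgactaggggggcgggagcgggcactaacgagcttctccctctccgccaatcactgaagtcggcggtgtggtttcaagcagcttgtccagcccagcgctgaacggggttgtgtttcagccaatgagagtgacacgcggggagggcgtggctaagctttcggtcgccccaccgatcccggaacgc
Gbp3 held 2 overlapping matches, Ifit3 held 2 and Stat2 held 1. Of the 5 interferon-stimulated genes that were higher, 4 had a promoter in the table with 5 windows, of which 3 held the letters. The share over all promoters was 3.44%, over the promoters of genes tested 3.42%, over those of the 518 higher genes 4.08% and over those of the 95 lower genes 4.44%.

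**Figure D4:**
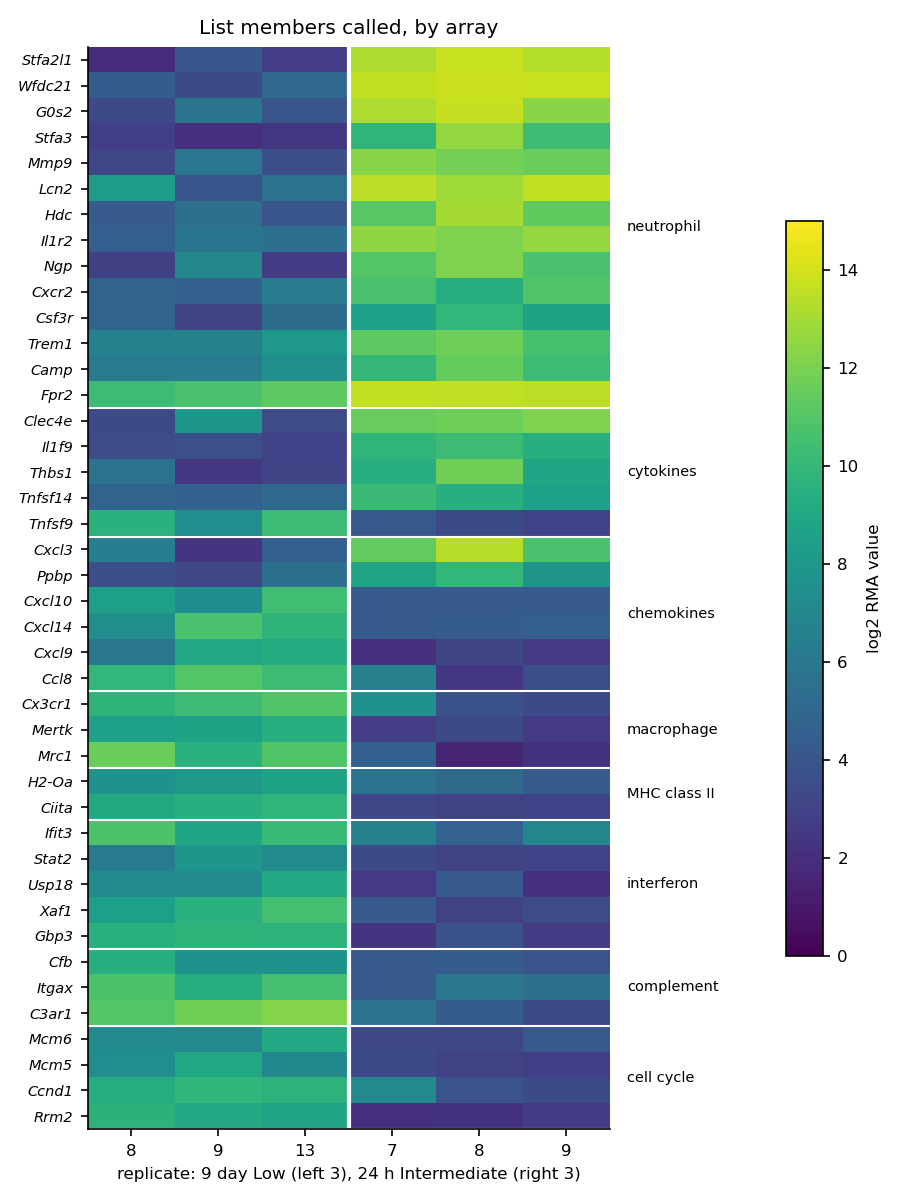
Log2 RMA value (colour, 0 to 15) of the genes with adjusted p under 0.05 in 8 lists, 1 row per gene and 1 column per array, with the 3 arrays of 9 day Low at the left and the 3 of 24 h Intermediate at the right. The 14 neutrophil genes are darker at the left and brighter at the right, and the macrophage, MHC class II, interferon, complement and cell cycle genes the other way round; Cx3cr1 and Ccnd1 are brighter on 24 h Intermediate replicate 7 than on replicates 8 and 9.

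The largest difference toward 9 day Low was Ptger4, the EP4 receptor through which prostaglandin E2 dampens inflammatory output of macrophages. It had 13.34, 12.87 and 12.68 in 9 day Low and 2.34, 4.49 and 2.21 in 24 h Intermediate. The difference was 9.95 ± 0.85, about 990-fold (adjusted p = 0.00776). A further probe set of Ptger4 differed by 3.89, so the size of the difference depends on the probe set. Among 13 tested eicosanoid genes Ptger4 was joined by Cysltr1, a receptor for cysteinyl leukotrienes (about 25.4-fold higher, adjusted p = 0.0211). Hpgd, which degrades prostaglandins, was higher too (5.04 ± 1.01, adjusted p = 0.0309). Ltb4r1, the receptor for the neutrophil attractant leukotriene B4, was lower, with 5.44, 6.93 and 6.63 in 9 day Low and 9.48, 9.74 and 9.65 in 24 h Intermediate (-3.29 ± 0.70, adjusted p = 0.0372), but no gene of this list was lower with any 1 array left out. Ptgs2, the inducible cyclooxygenase, had 11.24, 9.89 and 11.18 in 9 day Low and 12.35, 13.40 and 12.07 in 24 h Intermediate and did not pass (adjusted p = 0.205). The list median of 0.46 lay below that of all genes.

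Lipid genes also went both ways. Lpl, the lipase that frees fatty acids from lipoproteins, was about 271-fold higher (adjusted p = 0.00776). Values were 11.63, 11.24 and 10.88 in 9 day Low and 2.83, 2.91 and 3.75 in 24 h Intermediate. Pltp, the phospholipid transfer protein, had 13.13, 13.001 and 13.14 in 9 day Low and 8.35, 6.93 and 8.20 in 24 h Intermediate (5.27 ± 0.70, adjusted p = 0.0109) and was called P on all 6 arrays. These 2 and the lower G0s2 were the calls among 21 tested lipid genes, whose median was 0.23. Such counts stand beside 7.05% higher and 1.29% lower over all genes tested. Apoe had 11.67, 11.49 and 13.10 in 9 day Low and 10.38, 4.59 and 9.17 in 24 h Intermediate and did not pass (adjusted p = 0.17), with replicate 8 far below the others.

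Among 12 tested growth and repair factors, 1 was higher and 1 lower, beside 7.05% and 1.29% of all genes tested. The list median was 1.63 (-0.28 after centring on the genes tested), 0.60 above that of all genes under both. Of these 12, 7 were never called P in 24 h Intermediate. Igf1, the growth factor IGF-1, was about 59.2-fold higher (adjusted p = 0.00972). Values were 9.94, 10.80 and 9.40 in 9 day Low and 4.07, 3.57 and 4.83 in 24 h Intermediate. Chil1, a chitinase-like protein known from the injured kidney, was about 67.3-fold lower (adjusted p = 0.0115). Values were 4.62, 4.28 and 4.03 in 9 day Low and 8.91, 10.98 and 11.27 in 24 h Intermediate. Tgfb1, the main fibrogenic cytokine, had 5.15, 7.09 and 7.20 in 9 day Low and 3.47, 3.92 and 3.81 in 24 h Intermediate, apart on every array but not past the test (adjusted p = 0.0919). In the matrix list, of 20 tested with a median of -0.43, Mmp9, Thbs1 and the urokinase receptor Plaur (-5.37 ± 0.80, adjusted p = 0.014) were lower. The membrane protease Mmp14 was higher (about 20.5-fold, adjusted p = 0.0357, but a difference of 0.26 on a further probe set). Mgp, an inhibitor of calcification, was among the 12 largest higher genes (about 239-fold, adjusted p = 0.00776). Values were 11.28, 12.14 and 11.03 in 9 day Low and 3.24, 3.51 and 3.99 in 24 h Intermediate.

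Cell cycle calls included genes of DNA replication. Of the 20 tested, 12 were never called P in 24 h Intermediate and so could hardly be lower. Rrm2, a subunit of ribonucleotide reductase, was about 116-fold higher (adjusted p = 0.00776). Values were 9.66, 9.03 and 8.77 in 9 day Low and 2.05, 2.21 and 2.63 in 24 h Intermediate. The helicase subunits Mcm5 (4.73 ± 0.77, adjusted p = 0.0175) and Mcm6 (about 18.8-fold, adjusted p = 0.0275) and the cyclin Ccnd1 (4.87 ± 1.08, adjusted p = 0.0416) were the others of 4 higher. The list median was 2.24, and with 1 array left out 1 to 4 were higher. Further probe sets disagree for 3 of these 4 genes. That of Rrm2 differed by 0.42, against 6.86 for the one used. The pairs of Mcm6 differed by 5.94 and -0.15, and those of Ccnd1 by 3.97 and -0.05. Mki67, a marker of cycling cells, had 8.62, 4.40 and 5.88 in 9 day Low and 3.40, 4.67 and 4.08 in 24 h Intermediate, which overlapped (adjusted p = 0.287), and Top2a, needed to separate chromosomes, overlapped too (adjusted p = 0.833). Dnmt1, which copies DNA methylation at replication, was about 192-fold higher (adjusted p = 0.00953). Values were 8.28, 10.30 and 10.64 in 9 day Low and 1.71, 2.29 and 2.46 in 24 h Intermediate. All 7 other groups averaged 7.07 to 10.42, so 24 h Intermediate lay below the mean of every other group.

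The other 7 groups of sorted cells show, as a description with no test, how unusual some of these levels were. Bcl2l15, a member of the Bcl-2 family, had 1.88, 1.82 and 1.99 in 9 day Low and 10.09, 9.69 and 9.68 in 24 h Intermediate, and the highest of the 18 other arrays was 3.69. Lipg, the endothelial lipase, had 2.38, 2.22 and 2.50 in 9 day Low and 7.84, 11.83 and 10.40 in 24 h Intermediate, and the other groups averaged 1.87 to 5.36. For both genes 24 h Intermediate had the highest group mean. Prnp, the prion protein, was about 291-fold lower in 9 day Low (adjusted p = 0.00776), and the other groups averaged 2.35 to 7.99, between both. Asprv1, an aspartic protease, was about 239-fold lower (adjusted p = 0.00776), with other groups at 4.67 to 8.87. H2-Q10, a class Ib MHC gene with many close copies, was about 232-fold lower (adjusted p = 0.00776). Gcnt2, a glycosyltransferase that branches glycans, differed by -7.70 ± 1.30 (adjusted p = 0.0193), but another group averaged 11.08, close to 24 h Intermediate at 11.36, and its further probe sets differed by -1.49 and -2.03.

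On the higher side, Lair1, Acp2 and Cp averaged higher in 9 day Low than in all 7 other groups. This was common, since Ptger4, Lpl, Dennd4a, Mrc1, Mgp, Limk1 and Man1c1 of the 12 largest did so too. The other groups include arrays of low yield, down to 1.99% of probe sets called P in sham High replicate 1. Lair1, an inhibitory receptor for collagen, was about 211-fold higher (adjusted p = 0.00972). Values were 11.87, 11.43 and 8.91 in 9 day Low and 3.21, 2.80 and 3.05 in 24 h Intermediate. Other groups averaged 2.77 to 6.32, with arrays up to 9.38. Acp2, a lysosomal acid phosphatase, was about 255-fold higher (adjusted p = 0.00972). Values were 9.30, 12.15 and 12.39 in 9 day Low and 3.21, 3.65 and 2.99 in 24 h Intermediate. Other groups averaged 2.70 to 6.87. Single arrays reached 11.94 in 9 day Intermediate, 11.24 in 4 h Intermediate and 10.80 in sham 58 High, above the lowest 9 day Low array. Cp, the ferroxidase ceruloplasmin, had 9.88, 8.29 and 9.89 in 9 day Low and 2.69, 2.87 and 3.10 in 24 h Intermediate (6.47 ± 0.74, adjusted p = 0.00955), and other groups averaged 2.63 to 4.23, with no array above 6.40. Other genes were as high elsewhere: Luc7l, a splicing factor, and Kbtbd11, a Kelch-domain protein, averaged 10.10 and 10.46 in 9 day Low and reached 11.42 and 11.08 in a sham group. Limk1, a kinase of the actin regulator cofilin, Man1c1, a Golgi mannosidase, and Dennd4a, an activator of Rab GTPases, completed the 12 largest. They were about 209-fold, 204-fold and 237-fold higher (adjusted p = 0.00776 each).

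For each gene the probe set with the highest mean was used, and others often gave smaller differences. Of 73 named genes called, 31 had 43 further probe sets past the filter, of which 41 had the same sign, 37 had a smaller difference and 8 differed by under 1 log2 unit. Further probe sets differed by 2.76 and 3.10 for Acp2, by 1.09 and 1.42 for Luc7l, by 1.48 and 6.03 for Dnmt1, and by -2.69 for Prnp. They differed by 2.29 for Ciita, by 1.41 to 3.11 for Igf1, by 1.13 for Cxcl9, by 0.99 for Cysltr1, by 0.91 for Itga6 and by -1.73 for Thbs1. Those of Lpl (5.89), Lair1 (5.05 and 5.21), Pltp (7.03), Egr2 (6.46), Mmp9 (-6.59), Arg2 (-8.05) and Lipg (-7.48) were large too.

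Only 6 genes were higher under quantile normalization, centring on the genes tested and the yield covariate alike, and they were looked up after their values were seen. They were Lair1, Cp, Opa1, which fuses inner mitochondrial membranes (7.01 ± 0.74, adjusted p = 0.00776), Slc29a3, a lysosomal nucleoside transporter (6.70 ± 0.69, adjusted p = 0.00776), Phf20l1, a reader of methylated lysine (6.42 ± 0.78, adjusted p = 0.00972), and Lpin2, a phosphatidate phosphatase (6.35 ± 0.86, adjusted p = 0.0114). None of the 6 was called P on any 24 h Intermediate array. On the lower side, 54 of the 95 genes were called under the same 3 alternatives.

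Genes detected on at least 2 arrays of both groups had fewer calls. Of the 12 higher among them, also chosen after their values were seen, 3 were still higher when only such genes were tested: Pltp, Rab7b, a late-endosomal GTPase, and Sp100, a nuclear body protein induced by interferon. Rab7b had 9.65, 10.08 and 9.81 in 9 day Low and 4.80, 4.49 and 3.11 in 24 h Intermediate (5.71 ± 0.74, adjusted p = 0.0105). Sp100 had 9.63, 10.26 and 10.92 in 9 day Low and 5.03, 5.30 and 5.37 in 24 h Intermediate (5.04 ± 0.68, adjusted p = 0.0112). The same 3 genes were called with each array left out in turn, and 7 of the 12 were called after quantile normalization and 1 with the yield covariate. The 53 lower genes of this kind ranged from -10.57 to -2.77, and 48 were called after quantile normalization and 33 with the yield covariate. They included Saa3, an acute phase protein (-5.78 ± 0.71, adjusted p = 0.00972), Slpi, a secreted inhibitor of elastase (-6.59 ± 1.25, adjusted p = 0.026), Trem3, a myeloid receptor (-7.25 ± 0.78, adjusted p = 0.00846), Morrbid, a long noncoding RNA that sustains short-lived myeloid cells (-6.39 ± 0.74, adjusted p = 0.00955), and Acod1, the enzyme that makes itaconate (-5.98 ± 1.31, adjusted p = 0.04).

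Monocyte lists held calls on both sides. In the classical monocyte list, Chil3, Ifitm6, Thbs1 and Hp were lower, none of 13 tested was higher, and the median was -0.50. Ccr2, the receptor by which classical monocytes leave the marrow, lay higher in the Low gate, with 12.43, 11.82 and 11.99 in 9 day Low and 10.26, 8.06 and 6.95 in 24 h Intermediate, without overlap (adjusted p = 0.0718). In the nonclassical list of 15 tested genes Cx3cr1 was higher and Pglyrp1, a peptidoglycan-binding granule protein, was lower (-5.79 ± 0.71, adjusted p = 0.00972), with a median of -0.24. Of 8 tested chemokine receptors Cx3cr1 was higher and Cxcr2 lower, with a median of -0.85.

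Counts in lists of broad programmes are descriptions, to be read beside the 7.05% of all genes tested that were higher and 1.29% lower. Among immediate early genes 2 of 24 were higher, none was lower, and the median was -0.05. The higher ones were Egr2 (about 74.4-fold, adjusted p = 0.0107) and Nr4a2 (about 17.1-fold, adjusted p = 0.0295, but differences of 0.51 and 0.22 on further probe sets). Fos, a marker of handling and activation, had 13.10, 11.60 and 13.14 in 9 day Low and 11.99, 13.67 and 12.43 in 24 h Intermediate, which overlapped (adjusted p = 0.96). Of 29 lysosome genes Npc1, a cholesterol exporter, was higher (about 13.5-fold, adjusted p = 0.0451), and 26 lay above 0. The lysosome median was 1.86 (-0.05 after centring on the genes tested), 0.83 above that of all genes under both. None of 28 Toll-like receptor and NF-kB genes passed, with a median of 0.84. In oxidative phosphorylation Ndufa10, of 35 tested (median 0.13), and among cytosolic ribosomal proteins Rpl14, of 24 tested (median 0.60), were the 1 higher gene each and none was lower. Slc2a3, a glucose transporter, was the 1 lower gene of 23 for hypoxia and glycolysis (-4.62 ± 1.07, adjusted p = 0.0474; median 0.02). Hpgd was the 1 higher gene of 20 for oxidant and heme response (median -0.34), Il1r2 the 1 lower of 9 interleukin-1 receptor and inflammasome genes (median -0.37), and Arg2 the 1 lower of 10 for arginine and polyamine metabolism (median 0.17). In adhesion and migration, Itgax and the laminin receptor chain Itga6 (about 32.3-fold, adjusted p = 0.0193) were higher, of 19 tested with a median of 0.85.

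**Figure D5:**
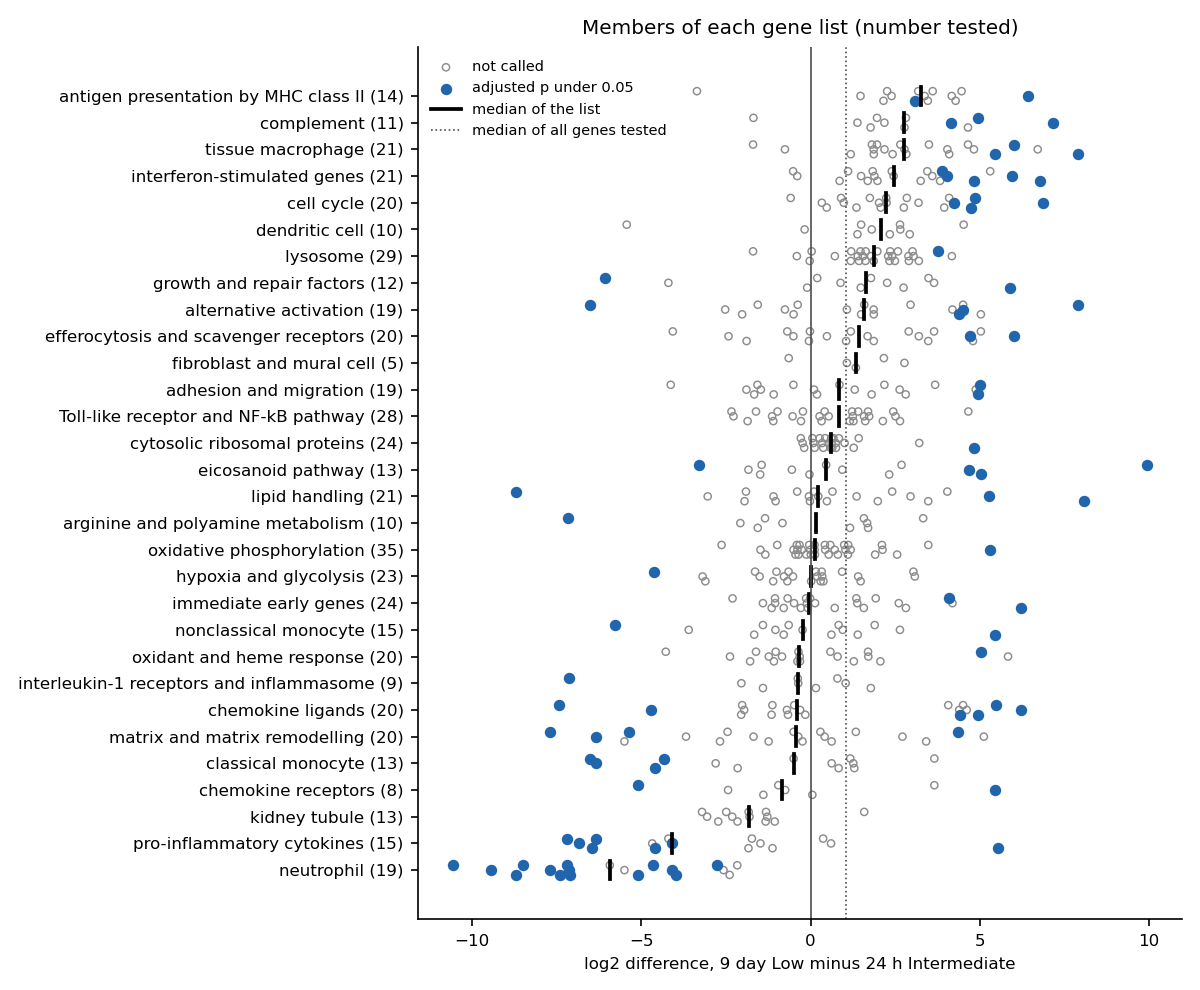
Log2 difference (9 day Low minus 24 h Intermediate) of every tested member of the lists with at least 5 genes tested, ordered by list median (black bar), with filled blue points for adjusted p under 0.05 and a dotted line at the median of all genes (1.03). The neutrophil list (median -5.94) and the pro-inflammatory cytokine list (-4.10), which also holds other genes, lie at the bottom. MHC class II (3.28), complement (2.77) and tissue macrophage genes (2.77) lie at the top.

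No gene of the kidney tubule list passed, but 12 of 13 tested lay below 0, with a median of -1.83, and the summed level was 2684, 3293 and 2237 in 9 day Low and 19251, 8201 and 15383 in 24 h Intermediate. Kap, an androgen-regulated tubule gene, had 8.30, 10.46 and 9.55 in 9 day Low and 12.33, 11.89 and 12.28 in 24 h Intermediate (adjusted p = 0.0882), while the tubule receptor Lrp2 was called P on none of the 6 arrays. The part of tubule RNA in other differences was not tested. None of 10 dendritic cell genes (median 2.07), 2 NK cell, 2 T cell, 4 B cell, 2 endothelial and 5 fibroblast and mural cell genes tested was called. Among 2 tested erythrocyte and platelet genes Ppbp was lower. None of the eosinophil and mast cell genes was detected on enough arrays to be tested, and Cd79a, Ncr1 and Siglecf were called P on none of the 6 arrays. Without the genes of the neutrophil list and of these other lists, dendritic cells excepted, 591 genes were called, 512 higher and 79 lower.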

How the data were processed

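CD11b+ kidney cells were profiled on 25 Affymetrix arrays, of which 6 enter the comparison. The authors deposited log2 values made with RMA in Affymetrix Expression Console, per the submitters' processing notes, and its versions were not given in the sources used here. A signal intensity and a detection call per probe set were also deposited, and for these no algorithm was named. RMA is meant to scale all arrays to 1 distribution, which can raise undetected genes where few are detected. The medians of the deposited values still differed. They ran from 2.97 to 3.05 in 9 day Low and from 3.17 to 3.38 in 24 h Intermediate.

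Of 45101 probe sets, 34958 were paired with 1 gene, 932 with several and 9211 with none. Each gene was represented by 1 probe set, and those P on at least 2 arrays of a group were tested with limma 3.58.1 (lmFit and eBayes, two-sided, Benjamini-Hochberg over 7350 genes) in R 4.3.3. Python 3.11.15, numpy 2.4.6, pandas 2.3.3, scipy 1.17.1 and matplotlib 3.10.9 made the summaries and figures. Named genes were the 12 largest called differences in each direction without overlap (log2 difference of at least 1, clone names left out), up to 4 tested members of smallest p per list, the list anchors and the sort markers. Any others, further called list members among them, were chosen after their values were seen. Members and lists were chosen with earlier results of these data known. In simulated data for 7350 genes, limma recovered 36% of 100 genes changed by a log2 of 4 and 74% of those changed by 8, with 6 false calls. The simulation drew independent normal noise with the spread of each gene. It left out the difference in yield and detection and the shift of all genes, so its false calls do not measure those of the real comparison. The number of arrays limits the precision. Alternatives were the deposited signals, other scalings, filters and probe set rules, more arrays, array weights, yield as a covariate, blocks, and each array left out.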

Additional observations from a re-analysis of the deposited data

How the results depend on the processing

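The 613 calls (518 higher and 95 lower in 9 day Low) moved with the scaling and the filter. The deposited signals gave 359, of which 295 were higher, and quantile normalization gave 385, of which 272 were higher. Centring on the genes tested gave 307 (53 higher, 254 lower), yield as a covariate gave 159 (54 higher), and testing only genes P on at least 2 arrays of both groups gave 17 (3 higher, 14 lower). Leaving out each array gave 237 to 676 calls, 192 to 599 higher and 45 to 77 lower. The total was lowest without 9 day Low replicate 13 (237) and highest without 24 h Intermediate replicate 7 (676). It was also lower by over 1.5 times without 24 h Intermediate replicate 8 (296), replicate 9 (289) and 9 day Low replicate 9 (341). With the replicate number of the labels as a block, limma made 0 calls, and 1375 genes had an unadjusted p under 0.05. Numbers 7 and 13 stand in 1 group each, so in this fit only numbers 8 and 9 carry the difference. It keeps fewer residual degrees of freedom than the main fit, so its 0 calls cannot be set against the 613. Same-numbered samples come from different time points, and their deviations correlated at 0.00913 for number 8 and 0.0605 for number 9. Pairs of unlike number ran from -0.0396 to 0.0329. The labels do not say what the number means across time points, and an effect shared by number was not tested. Of the 613 genes, 7 had the opposite sign with the yield covariate and none in the other alternatives that tested them, and none was called in the opposite direction. The cause of the shifts between settings was not tested. Detection limits the comparison: 506 of 518 higher genes were P on at most 1 array of 24 h Intermediate.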
